A study of Mus musculus with 24 samples.

Results

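The genes described here encode the subunits of the proteasome, the large protease that degrades ubiquitin-tagged proteins. They were taken by name: of 23364 gene symbols in the counts, 40 began with Psma, Psmb, Psmc or Psmd and a digit, and the 3 inducible subunits of the immunoproteasome (Psmb8, Psmb9 and Psmb10) were left out of the set and used only for comparison. That leaves 37 genes, of which 31 encode canonical subunits of the 26S particle in 5 structural groups: 7 of the alpha ring, 7 of the beta ring, 6 ATPases of the base, 3 other base subunits and 8 of the lid. The other 6 carry the name without being such subunits: Psmd5, Psmd9 and Psmd10 are assembly chaperones of the base, Psma8 and Psmb11 are subunits known from testis and thymus, and Psmc3ip is a meiotic recombination factor. All 37 passed the filter on low counts, with between 207 and 20643 reads in any library.

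The 24 RNA sequencing libraries came from bone marrow of C57BL/6 mice aged 8 to 12 weeks, with cells of several mice of both sexes pooled for each library. Lineage-negative, Kit+, Sca1+, CD150+, Flt3- cells were sorted by CD34 and CD48 into haematopoietic stem cells (HSC, CD34-CD48-), the multipotent progenitors MPP1 (CD34+CD48-) and MPP2 (CD34+CD48+). Each population was taken from Mysm1 fl/fl CreERT2 mice after tamoxifen (KO, n = 3 libraries), from Mysm1 +/fl CreERT2 mice given the same tamoxifen (Het, n = 3) and from Mysm1 fl mice given corn oil (Sham, n = 2); tamoxifen was given as 8 injections of 0.15 mg per g over 16 days. Mysm1 encodes a histone H2A deubiquitinase. KO and Het mice share tamoxifen and the inducible Cre, and Sham mice had no tamoxifen. The promoter that drives the Cre, and whether Sham mice carry it, are not given in the sources used here. Each library pools animals, so the p-values rest on variation from pool to pool.

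The 26S proteasome consists of a barrel, the 20S core particle, capped by the 19S regulatory particle. The barrel stacks rings of alpha subunits, which form the gate, on rings of beta subunits, of which Psmb6, Psmb7 and Psmb5 carry the caspase-like, trypsin-like and chymotrypsin-like active sites. In the cap, the ATPases of the base unfold substrates, other base subunits bind ubiquitin, and the lid holds Psmd14, the metalloprotease that cuts ubiquitin chains from substrates. When proteasome activity falls, the transcription factor Nrf1 (gene Nfe2l1) raises transcription of subunit genes through antioxidant response elements. Haematopoietic stem cells are known for low protein synthesis and for dependence on protein quality control.

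The promoters of a few subunits are printed as a description. Their part in the joint movement of the 31 mRNAs across libraries, described below, was not tested. RefSeq promoter windows (GRCm38.p6, 250 bases before to 50 after a start site) were found for 30 of the 37 genes and 25 of the 31 subunits. The antioxidant response element core TGACNNNGC was searched on both strands, and 4 of the 25 subunit genes (16%) held it, against 14% of all 27025 genes with a window. CCAAT, the NF-Y box, was in 10 of 25 (40%) against 41.1% of all genes. CCGGAAG, an ETS-family site, was also in 10 of 25 (40%), against 9.93% of all genes. No share was taken for expressed genes alone. In Psmb5 and Psmb6 the antioxidant core lay close to the start site, beginning 47 and 9 bases before it. The ETS match began 45 bases before the start in Psmd6, 28 in Psmc1, 17 in Psmd12 and 11 in Psmd11. These stretches end at the base before the start site and run along the gene's strand, with the matches in capitals, and CTTCCGG is CCGGAAG on the other strand. They lie at chr14:54617996-54618055 (Psmb5, minus strand), chr11:70525327-70525356 (Psmb6, plus), chr14:14120946-14121005 (Psmd6, minus), chr12:100110142-100110201 (Psmc1, plus), chr11:107479468-107479527 (Psmd12, plus) and chr11:80428555-80428614 (Psmd11, plus).
Psmb5: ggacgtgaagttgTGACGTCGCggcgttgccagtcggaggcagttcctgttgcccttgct
Psmb6: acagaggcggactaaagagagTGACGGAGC
Psmd6: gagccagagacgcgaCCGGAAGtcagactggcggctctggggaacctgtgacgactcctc
Psmc1: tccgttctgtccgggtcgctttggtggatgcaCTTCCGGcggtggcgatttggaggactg
Psmd12: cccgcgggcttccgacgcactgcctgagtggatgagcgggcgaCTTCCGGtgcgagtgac
Psmd11: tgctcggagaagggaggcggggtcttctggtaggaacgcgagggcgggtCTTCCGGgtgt
Psmd12 also held the antioxidant core, far upstream in its window. A match is a run of letters and not evidence of binding.

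Libraries held 18823971 to 53196624 counts, and HSC KO library 1 (15740 genes detected) and HSC Het library 2_3 (15932) stood apart at the low end of a range that reached 21150. Replicates are numbered 1, 2_3 and 4, and Sham has no library 1. The sort is reflected in Cd48, with a median of 0.914 CPM (counts scaled to library size) in HSC, 1.31 in MPP1 and 27.3 in MPP2. Other sort genes followed it less closely. Cd34 ran from 44.1 to 106 CPM in HSC, 119 to 215 in MPP1 and 51.5 to 272 in MPP2. Ly6a, which encodes Sca1, had medians of 23.4, 16.1 and 3.33 CPM in HSC, MPP1 and MPP2. Flt3 had medians of 19.1, 25.1 and 12.9 CPM and reached 98 in an MPP2 library. Mysm1 itself ranged from 96.3 to 121 CPM in HSC KO libraries and 109 to 138 in HSC Het, from 76.7 to 119 and 115 to 118 in MPP1, and from 88.1 to 102 and 98.5 to 112 in MPP2. Since a single exon is deleted, counts over the whole gene do not check the genotype. The summed CPM of 15 genes of cycling cells was 2369 to 4862 in HSC KO, 1291 to 2986 in HSC Het and 1527 to 1687 in HSC Sham. In MPP1 those sums were 3352 to 5731, 2437 to 5711 and 2796 to 3531, and in MPP2 7428 to 8925, 6558 to 8123 and 6931 to 7396. The 12 neutrophil genes found summed to 3249 CPM in MPP2 Het library 2_3 and 1200 in MPP1 Sham library 2_3. Megakaryocyte and platelet genes (9) summed to 726 to 984 in HSC KO against 134 to 359 in HSC Het. Their KO and Het sums overlapped in MPP1 (778 to 1264 and 327 to 1125) and in MPP2 (529 to 1261 and 551 to 1379). Late erythroid genes (9) summed to 8.62 to 10 in HSC KO against 15.2 to 208 in HSC Het. Those sums were 6.74 to 12.5 against 12.3 to 109 in MPP1, and 135 to 245 against 300 to 483 in MPP2. The part of these cell types in the subunit results was not tested. In bulk RNA a change in the kinds of cells and a change in RNA per cell cannot be told apart.

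Per kb of exon, the most abundant of the 37 mRNAs was Psma4, an alpha ring subunit, at a mean of 269 CPM per kb over the 24 libraries. Psmd4, the ubiquitin receptor of the base, followed at 192 and Psma7, another alpha subunit, at 176. The active-site subunits differed among themselves, with Psmb6 at 94.2, Psmb7 at 58.3 and Psmb5 at 33 CPM per kb. Psmd14 stood at 74.4. The lowest of the 31 canonical subunits was Psmd11, a scaffold subunit of the lid, at 31.6. Below all of these lay the genes that are not canonical subunits: Psmd5 at 30.1, Psmc3ip at 27.9, Psmd9 at 9.94, Psmb11 at 8.3, Psma8 at 8.16 and Psmd10 at 7.92. Levels per kb use the gene length listed beside the deposited counts, which for genes with long alternative exons can exceed the transcript made. Listed lengths also differ from the merged exon lengths of the mm9 annotation, in both directions. They are 1096 against 2370 bases for Psma4, 1743 against 6401 for Psmd11 and 2833 against 1469 for Psmd10. The order of the genes therefore depends on the lengths used.

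**Figure D1:**
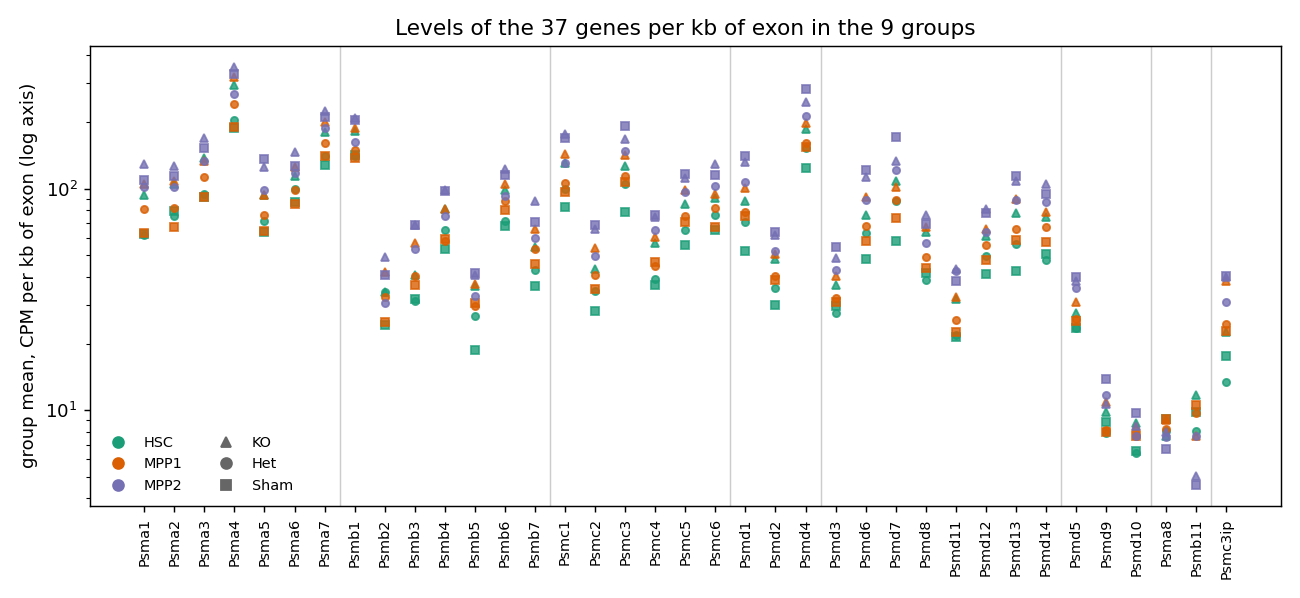
Mean level of each of the 37 genes in the 9 groups, in CPM per kb of exon on a log axis, with colours for cell populations and symbols for genotype groups. Grey lines divide structural groups. By the listed gene lengths Psma4 is highest, and the 4 lowest genes (Psmd9, Psmb11, Psma8, Psmd10) are not canonical subunits.

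The canonical subunits varied together from library to library. Over the 24 libraries the log2 CPM of each subunit was correlated with the mean of the other subunits at a median Pearson r of 0.933, from 0.695 for Psmb2 to 0.970 for Psmc1. These values are a description of 24 libraries that share cell types, genotypes and scaling. Psmb5 followed the mean less closely, at 0.772, as did the chaperones Psmd10 (0.727) and Psmd9 (0.759). Psma8 (-0.112) and Psmb11 (-0.633) did not follow it. Psmb11, the thymic beta subunit, lies beside Psmb5 on chromosome 14 (mm9, 55244147 to 55248393 on the plus strand, against 55232644 to 55236851 on the minus strand). Its level ran from 14.5 CPM in MPP2 KO library 1 to 88 in HSC KO library 2_3, and its KO and Het libraries overlapped in each population. Among 10999 other genes, those with patterns close to the subunit mean included Eif2s1 (r = 0.983), a translation initiation factor subunit, Cct5 (0.982), a subunit of the cytosolic chaperonin, and Ldha (0.982), lactate dehydrogenase. Atp5f1, an ATP synthase subunit, followed at 0.980. Very high correlations were thus not particular to proteasome genes.

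The mean log2 CPM of the 31 subunits was lowest in HSC and highest in MPP2 in each genotype group, and higher in KO than in Het in each cell population. In HSC the mean was 6.97, 6.67 and 6.72 in KO libraries 1, 2_3 and 4, and 6.28, 6.3 and 6.57 in the Het libraries. HSC Sham libraries 2_3 and 4 had 5.92 and 6.43, the first of which was the lowest of all 24. All 3 KO libraries of HSC thus lay above the 3 Het and 2 Sham libraries. In MPP1 the KO libraries had 7.19, 6.74 and 6.79, the Het libraries 6.73, 6.45 and 6.52, and Sham 6.43 and 6.37, so that KO again lay above both control groups, with KO library 2_3 barely above Het library 1. In MPP2 the KO libraries had 7.34, 7.03 and 7.22 and the Het libraries 6.87, 6.75 and 7.02. MPP2 Sham, at 7.29 and 7.05, lay within the KO range and above every Het library. As group means, the order in HSC was KO 6.79 ± 0.16 (SD, n = 3), Het 6.38 ± 0.17 (n = 3) and Sham 6.17 ± 0.36 (n = 2). In MPP1 it was KO 6.91 ± 0.24, Het 6.57 ± 0.15 and Sham 6.4 ± 0.047, and in MPP2 KO 7.2 ± 0.15, Sham 7.17 ± 0.17 and Het 6.88 ± 0.13, with the same n. Library 1 was the highest KO library in each population, and the Sham group has no counterpart of it.

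**Figure D2:**
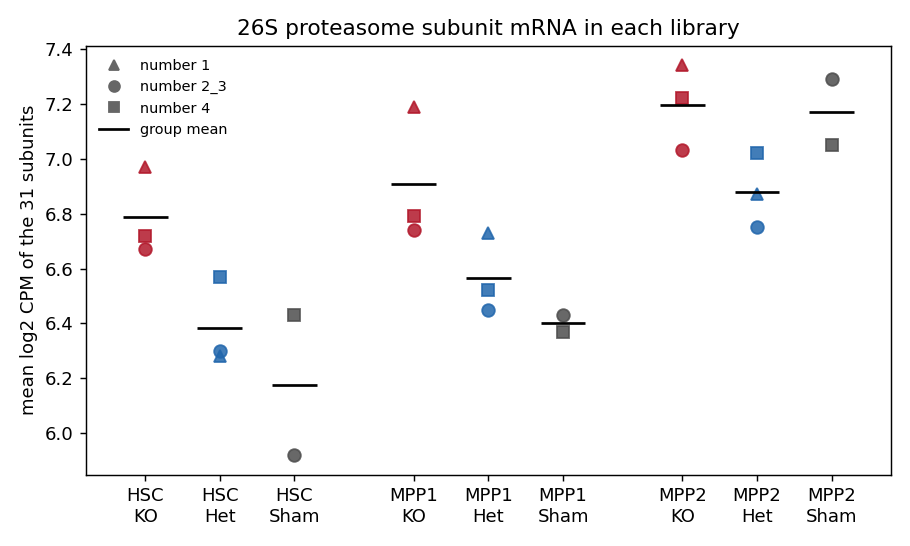
Mean log2 CPM of the 31 canonical subunits in each library, by cell population and genotype group. Symbols give the replicate number, colours the genotype group and horizontal bars the group mean. KO lies above Het in each population, and Sham lies with or below Het in HSC and MPP1 but with KO in MPP2.

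The main comparison, KO against Het, asks what loss of the remaining Mysm1 allele changes among mice that all received tamoxifen. Each gene was tested with edgeR's quasi-likelihood test over all 21456 genes with Benjamini-Hochberg adjustment, and called at an adjusted p under 0.05. The subunit mRNAs were slightly higher in KO in each population, but almost no single gene passed. In HSC, 35 of the 37 genes lay above 0, with a median log2 change of 0.39 against 0.03 for all genes, and 1 passed, where 0.322% of all genes rose. In MPP1, 36 lay above 0 with a median of 0.34 (all genes -0.11), and none passed (0.0326% of all genes rose). In MPP2, 35 lay above 0 with a median of 0.31 (all genes -0.06), and again none passed (0.378% of all genes rose). At an unadjusted p under 0.05, 18 members were higher in HSC (9.75% of all genes), 15 in MPP1 (5.2% of all genes) and 11 in MPP2 (4.06%), and 0 were lower in any of the 3. DESeq2 and limma called 1 member each in HSC and 0 in MPP1 and MPP2. The median in MPP1 was 0.22 without KO library 1 and 0.14 by limma on the authors' normalized table, and that in HSC was 0.25 without both HSC libraries of fewest genes. A total of 33 of the 37 genes were above 0 in all 3 populations, and the exceptions were Psmb2, Psmd9, Psma8 and Psmb11. The 3 comparisons use separate libraries, and whether libraries of one number share mice is not given in the sources used here.

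The gene that passed was Psmd8, a lid subunit, in HSC. Its level was 116, 82.7 and 91.6 CPM in the KO libraries, 62, 50 and 64 in Het and 53.8 and 72.4 in Sham. All KO libraries were above all others, and the log2 change against Het was 0.72 ± 0.18 (SE), with an adjusted p of 0.0487 in edgeR's quasi-likelihood test. That call is at the edge of the threshold. Without HSC KO library 1 its adjusted p was 0.282, without HSC Het library 2_3 it was 0.287, and without both it was 0.719 with a log2 change of 0.47. Over 14 alternatives its adjusted p ranged from 0.00349 to 0.719. In MPP1, Psmd8 stood at 121, 94.5 and 90.3 CPM in KO and 94.1, 60.6 and 69.4 in Het, and in MPP2 at 135, 99.9 and 109 against 86, 77.7 and 93.5, so the groups overlapped in MPP1 and did not in MPP2.

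The active-site subunits were higher in KO without passing the test. In HSC, Psmb5 stood at 37, 27.6 and 30 CPM in KO and 23.7, 24.6 and 21.5 in Het, without overlap, for a log2 change of 0.44 ± 0.18 and an adjusted p of 0.267 in edgeR's test. Psmb6 stood at 118, 85.5 and 102 CPM in KO and 62.5, 71.9 and 87.8 in Het, with a small overlap (log2 0.46 ± 0.17, adjusted p = 0.198). Psmb7 stood at 58.7, 47.2 and 52.4 CPM in KO and 34.6, 43 and 47.3 in Het (log2 0.34 ± 0.19, adjusted p = 0.412). None of these passed. The progenitors gave values of the same sign. In MPP1 the log2 changes were 0.34 for Psmb5, 0.27 for Psmb6 and 0.30 for Psmb7, with adjusted p from 0.578 to 0.62. In MPP2 they were 0.30, 0.41 and 0.56, with adjusted p from 0.419 to 0.98. For Psmb7 the MPP2 libraries did not overlap, at 95.9, 73 and 86.3 CPM in KO against 53.9, 57.8 and 61.9 in Het. The substrate deubiquitinase Psmd14 stood at 143, 90.9 and 111 CPM in HSC KO and 70.4, 72.3 and 77.1 in HSC Het, without overlap (log2 0.65 ± 0.22, adjusted p = 0.177). Its log2 change was 0.22 ± 0.22 in MPP1 and 0.27 ± 0.22 in MPP2, with adjusted p of 0.741 and 0.993, and these groups overlapped.

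By structural group, medians of the KO to Het difference (log2) in HSC were 0.49 for the alpha ring, 0.38 for the beta ring, 0.36 for the base ATPases, 0.31 for the other base subunits and 0.44 for the lid. In MPP1 the medians ran from 0.33 to 0.40 over the 5 groups, and in MPP2 from 0.23 for the non-ATPase base subunits to 0.39 for the beta ring. Core and cap medians lay close together. The 20S and 19S medians were both 0.39 in HSC, 0.34 and 0.35 in MPP1, and 0.35 and 0.27 in MPP2. Across all 37 genes the largest change in HSC was that of Psmc3ip (0.76 ± 0.28, adjusted p = 0.198), and the lowest that of Psma8 (-0.08 ± 0.28). Psmc3ip was also highest in MPP1 (0.64 ± 0.27, adjusted p = 0.541), where Psmb11 was lowest (-0.34 ± 0.57). In MPP2 the largest change was that of Psmb2, the beta ring subunit that follows the others least (0.69 ± 0.21, adjusted p = 0.26), and the lowest again Psmb11 (-0.60 ± 0.57).

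KO and Het libraries did not overlap, with all KO values higher, for 17 members in HSC, 16 in MPP1 and 10 in MPP2, against 7.16%, 8.49% and 9.06% of all genes. No member had all KO values lower in any of the 3. The members of this kind with the largest change were Psmd8, Psmd14 and the alpha subunit Psma1 in HSC. In MPP1 they were the beta subunits Psmb3 (0.50 ± 0.28) and Psmb4 (0.49 ± 0.17) and the lid subunit Psmd13 (0.45 ± 0.16), and in MPP2 Psmb2, Psmb7 and the ATPase Psmc1 (0.43 ± 0.17). Psma1 stood at 142, 100 and 109 CPM in HSC KO and 59.4, 86.1 and 88.4 in HSC Het. The cycling genes moved with this result: their median difference between KO and Het (log2) was 1.29 in HSC, 0.53 in MPP1 and 0.26 in MPP2, with 14 of the 15 above 0 in each population and 1, 0 and 0 called. Their part in the result was not tested. Without all libraries numbered 1, the members' median was 0.24 in HSC, 0.19 in MPP1 and 0.18 in MPP2, and 0 passed.

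**Figure D3:**
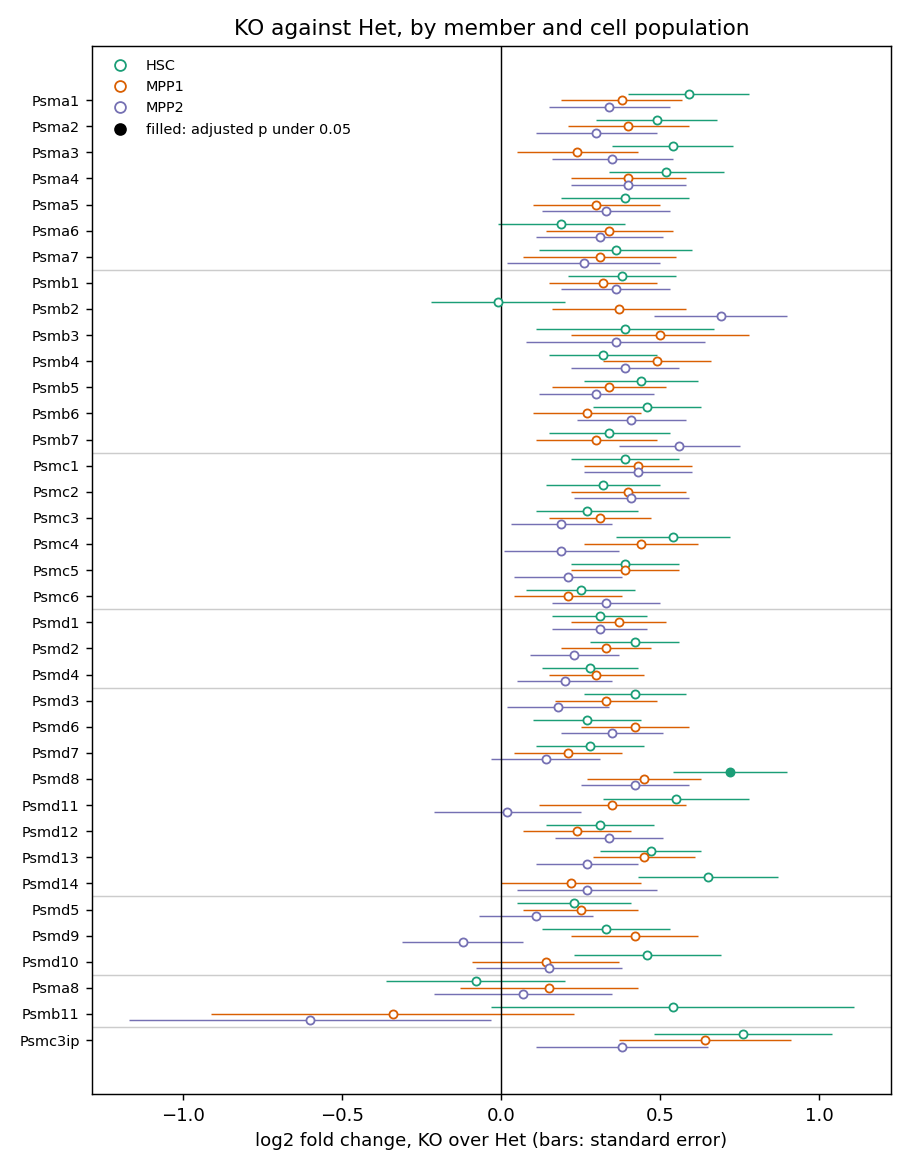
Log2 change of KO over Het for each of the 37 genes in HSC, MPP1 and MPP2, with bars for the standard error; 3 libraries a group. Filled points passed the adjusted threshold, which held for Psmd8 in HSC alone. Most points lie to the right of 0 in each population.

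Whether the shift differed between populations was tested with an interaction term. The difference of the KO effect in MPP2 from that in HSC had a median of -0.11 over the members (all genes -0.10). None passed, where 0.0326% of all genes were called higher and 0 lower. At an unadjusted p under 0.05, 1 member was higher, Psmb2, and 0 were lower. Of all 21456 genes, 1565 were under that level in either direction, and 3.6% were higher. Psmb2 stood at 35, 28.3 and 23.2 CPM in HSC KO and 33.5, 30.4 and 23.4 in HSC Het, and at 49.4, 35.9 and 39.4 in MPP2 KO and 26.9, 27.5 and 23.1 in MPP2 Het. It thus overlapped in HSC and not in MPP2, but the interaction of 0.70 ± 0.30 had an adjusted p of 0.607 in edgeR's test. Psmb11 had the lowest value, -1.14 ± 0.80. For MPP1 against HSC the median was -0.06 (all genes -0.10), with 0 members called, as were 0 of all genes in either direction. At an unadjusted p under 0.05 there were 0 members in either direction. Of all 21456 genes, 1044 were under that level in either direction, and 1.23% were higher. There Psmb2 was highest at 0.38 ± 0.30 and Psmb11 lowest at -0.88 ± 0.80. DESeq2 and limma called 0 members in both interactions. Without both HSC libraries of fewest genes these medians changed sign, to 0.02 for MPP2 and 0.09 for MPP1. The MPP1 median was also above 0 without HSC KO library 1, HSC Het library 1 or 2_3, MPP1 KO library 2_3 or 4, or MPP1 Het library 1.

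Sham mice give a second control, which differs from KO in tamoxifen as well as in Mysm1. This comparison shares its KO libraries with the comparison above. In HSC, KO exceeded Sham for 36 of 37 genes at a median of 0.57 (all genes 0.05), and 6 passed, all higher, where 1.9% of all genes rose. They were Psmb5 (log2 0.96 ± 0.21, adjusted p = 0.0151), the lid subunits Psmd7 (0.89 ± 0.19, 0.0118) and Psmd13 (0.86 ± 0.18, 0.0111), the large base scaffolds Psmd1 (0.76 ± 0.17, 0.0175) and Psmd2 (0.68 ± 0.16, 0.0211), and the ATPase Psmc3 (0.69 ± 0.18, 0.0358). Psmb5 was 17.3 and 15.1 CPM in HSC Sham, and Psmd7 was 177, 179 and 160 CPM in KO against 78.3 and 107 in Sham. Psmd13 was 147, 107 and 109 CPM in KO and 63.5 and 70 in Sham. Psma8 had the lowest change, -0.25 ± 0.32. Those 6 calls rest on few libraries. Without HSC Sham library 2_3 none passed and the median was 0.29, and without HSC KO library 1 none passed. None passed in a fit on these libraries alone, and DESeq2 called 10. With all libraries numbered 1 left out, 0 passed at a median of 0.31, and without the 2 HSC libraries of fewest genes 1 passed.

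In MPP1, KO exceeded Sham for 35 of 37 genes at a median of 0.48 (all genes -0.11), but none passed (0.0792% of all genes rose). At an unadjusted p under 0.05, 26 members were higher and 0 lower, where 7.1% of all genes were higher. The smallest adjusted p belonged to Psma4, at 0.141 in edgeR's test, with 451, 274 and 327 CPM in KO and 223 and 190 in Sham. Its change of 0.76 ± 0.21 was the highest, and that of Psmb11 the lowest at -0.46 ± 0.63. In MPP2 the members' median was 0.01 (all genes 0.10), with 20 genes above 0 and 0 called (0.489% of all genes rose). At an unadjusted p under 0.05 there were 0 members in either direction. Of all 21456 genes, 1229 were under that level in either direction, and 3.74% were higher. The changes ran from -0.36 ± 0.22 for Psmd9 to 0.31 ± 0.21 for Psmb7, and the sign of the median varied with the setting. DESeq2 and limma called 0 members in MPP1 and MPP2. The summed cycling genes of MPP2 Sham (6931 to 7396 CPM) lay narrowly below those of MPP2 KO (7428 to 8925) and within the MPP2 Het range. The subunit means of MPP2 Sham lay within the KO range. The part of the cycling genes in the subunit levels was not tested.

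Het against Sham compares tamoxifen and a lost allele with corn oil, and 0 members passed in any population, as did 0% of all genes. In HSC the median was 0.14, with 7 members higher and 0 lower at an unadjusted p under 0.05 (3.88% of all genes higher). The changes ran from -0.39 ± 0.31 for Psmc3ip to 0.61 ± 0.19 for Psmd7. Without HSC Sham library 2_3 that median was -0.12, and without Sham library 4 it was 0.43. In MPP1 the median was 0.13, with changes from -0.16 ± 0.32 for Psma8 to 0.38 ± 0.24 for Psmb2. There 0 members had an unadjusted p under 0.05 in either direction. Of all 21456 genes, 207 were under that level in either direction, and 0.517% were higher. In MPP2, 34 of 37 genes lay below 0 at a median of -0.30 (all genes 0.14). There 7 members were lower and 0 higher at an unadjusted p under 0.05, where 2.56% of all genes were lower and 2.75% higher. That median was -0.18 without MPP2 Sham library 2_3 and -0.16 by limma on the authors' table. Psmd7 had the lowest change, at 214, 159 and 208 CPM in MPP2 Het and 292 and 255 in MPP2 Sham, a log2 change of -0.50 ± 0.18 with an adjusted p of 0.773. The largest change was in the other direction: Psmb11 was 32.9, 42.6 and 21.5 CPM in Het and 18.4 and 20.8 in Sham (0.72 ± 0.65, adjusted p = 0.808 in edgeR's test). DESeq2 and limma called 0 members in these 3 comparisons. In MPP2, then, the mean log2 CPM of the canonical subunits was lower in every Het library than in KO and Sham, but narrowly. The highest Het library had 7.02, the lowest KO library 7.03 and the lowest Sham library 7.05. Gene by gene, 10 of 37 members had all KO values above Het, and 27 overlapped. Between Het and Sham, 21 had all Het values lower, 1 had all higher and 15 overlapped. The comparisons of Het with KO and with Sham rest on the same 3 Het libraries.

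Between cell populations more members passed. Among Het libraries, MPP2 exceeded HSC for 34 of 37 genes at a median of 0.48 (all genes -0.01), and 17 passed, all higher, where 9.59% of all genes rose. By particle, 13 of the 17 19S subunits passed (4 of 6 base ATPases, 3 of 3 other base subunits and 6 of 8 lid subunits), at a median of 0.55, and 1 of 14 20S subunits, Psma1, at a median of 0.40. The remaining 3 were Psmc3ip, Psmd5 and Psmd9. The largest change was that of Psmc3ip (1.20 ± 0.28, adjusted p = 0.00251), at 34, 24.7 and 30.8 CPM in MPP2 and 17.7, 8.35 and 12.9 in HSC. The lid subunit Psmd11 was 87.4, 76.9 and 58.9 CPM in MPP2 and 43.8, 31.6 and 38.4 in HSC, without overlap, and rose by 0.97 ± 0.23 (adjusted p = 0.0032). Psmd13, at 131, 136 and 151 CPM in MPP2 and 80.9, 80 and 102 in HSC, rose by 0.67 ± 0.16 (adjusted p = 0.00257). Psmd3, a lid scaffold (0.64 ± 0.16), the ATPase Psmc4 (0.73 ± 0.18) and Psmd1 (0.59 ± 0.15) had adjusted p of 0.00372, 0.00376 and 0.00523.

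Of the active-site subunits none passed in that comparison. Psmb5 changed by 0.30 ± 0.18 (adjusted p = 0.31), at 32.5, 26.3 and 27.1 CPM in MPP2 Het. Psmb6 changed by 0.37 ± 0.17 (0.143) and Psmb7 by 0.47 ± 0.19 (0.0877), each without overlap between the groups. Psmd14 rose by 0.87 ± 0.22 (0.00681), from 70.4, 72.3 and 77.1 CPM in HSC Het to 112, 133 and 155 in MPP2 Het. The lowest change was that of Psmb2, at -0.17 ± 0.21. The count of 17 ranged from 8 to 20 as single libraries were left out. It was 10 without MPP2 Het library 1, 8 without MPP2 Het library 4, 9 without HSC Het library 2_3, 11 without both HSC libraries of fewest genes, and 7 in a fit on these libraries alone. MPP2 Het library 2_3, with the highest neutrophil sum, made little difference to it: 18 passed without it.

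MPP1 lay between HSC and MPP2, and no member passed against HSC. In Het libraries the median of MPP1 against HSC was 0.17 (all genes 0.05), with 34 genes above 0, 0 called (0.014% of all genes rose) and 2 higher and 0 lower at an unadjusted p under 0.05 (6.62% of all genes higher). The changes ran from -0.16 ± 0.17 for Psmb4 to 0.87 ± 0.28 for Psmc3ip. DESeq2 and limma called 0 members there. For MPP2 against MPP1 in Het the median was 0.33 (all genes -0.12) and 1 member passed (3.23% of all genes rose). It was Psmd11, at 60.1, 35.5 and 38.1 CPM in MPP1 Het, with overlap at one library (0.74 ± 0.23, adjusted p = 0.0481). That call was lost without MPP1 Het library 2_3, MPP1 Het library 4 or MPP2 Het library 1, with 0 members passing in each case. It was also lost without MPP2 Het library 2_3, where 4 other members passed. With Psmd11 among them, 3 members passed without MPP1 Het library 1 and 8 by DESeq2. Psmb11 had the lowest change, -0.35 ± 0.57.

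The gap between MPP2 and HSC appeared in every genotype group, at different sizes. In Sham libraries 29 of 37 members passed, all higher, at a median of 0.89 (all genes -0.29), where 13.6% of all genes rose. These included all 17 19S subunits and 10 of the 14 20S subunits. Psmd7 was 292 and 255 CPM in MPP2 Sham and 78.3 and 107 in HSC Sham, a rise of 1.56 ± 0.21 (adjusted p = 3.86e-06). Psmd1 was 471 and 441 CPM in MPP2 Sham and 155 and 184 in HSC Sham, a rise of 1.43 ± 0.19 with the smallest adjusted p of any member, 3.44e-06. Psmd13 (1.41 ± 0.20), Psmc3 (1.28 ± 0.20), Psmd6 (1.33 ± 0.21) and Psmd4 (1.18 ± 0.19) followed by adjusted p. Among active-site subunits, Psmb5 rose by 1.16 ± 0.23 (adjusted p = 3.41e-04), Psmb7 by 0.96 ± 0.24 (0.00292) and Psmb6 by 0.76 ± 0.21 (0.00726). Psmb11 had the lowest change, -1.09 ± 0.70. The count fell to 15 without HSC Sham library 2_3 and to 17 without MPP2 Sham library 2_3, where a lone Sham library is taken to vary like the other groups, and to 19 in limma on the authors' normalized table.

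In KO libraries the median gap was 0.40 (all genes -0.17), with 35 genes above 0 and 4 called, where 3.39% of all genes rose. The calls were Psmd1 (0.59 ± 0.15, adjusted p = 0.0171), Psmb7 (0.69 ± 0.19, 0.0278), Psmd6 (0.57 ± 0.17, 0.0335) and Psmc2, an ATPase (0.60 ± 0.18, 0.0402). Psmb7 was 95.9, 73 and 86.3 CPM in MPP2 KO and 58.7, 47.2 and 52.4 in HSC KO. Psmd1 was 459, 398 and 434 CPM in MPP2 KO and 311, 296 and 252 in HSC KO. Neither overlapped. The largest change in size was that of Psmb11, -1.21 ± 0.57 (adjusted p = 0.28), and the largest rise that of Psmc3ip, 0.82 ± 0.28 (0.0765). With the replicate number as a block, 9 members passed. None passed without HSC KO library 2_3, HSC KO library 4, MPP2 KO library 1 or MPP2 KO library 4, and 8 passed without HSC KO library 1.

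The difference between the KO and Sham gaps was tested after the levels had been seen. It was negative for 36 of 37 members, at a median of -0.49 (all genes 0.04), so the fitted gap was smaller in KO. None passed, where 0.0326% of all genes were called higher and 4 of 21456 were called lower. The smallest adjusted p in edgeR's test was 0.0536, for Psmd7 (-1.25 ± 0.26). Psma8 was the member above 0 (0.50 ± 0.45). At an unadjusted p under 0.05, 14 members were lower and 0 higher, where 7.45% of all genes were lower and 4.23% higher. DESeq2 called 7 members and limma 1. The median moved to -0.27 without HSC Sham library 2_3 and to -0.79 without HSC Sham library 4. The cycling genes had the same sign for 14 of 15, at a median of -1.82 with 0 called, and their part in the result was not tested.

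**Figure D4:**
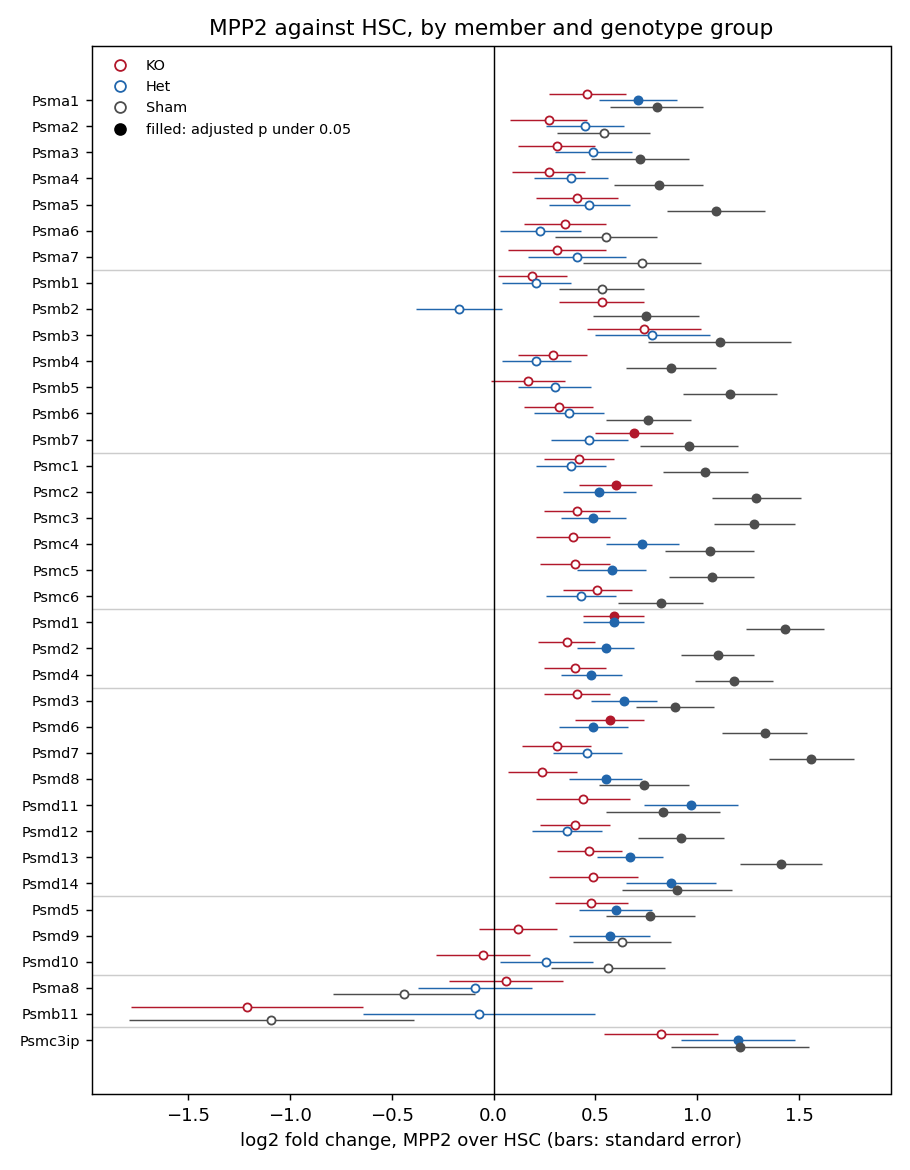
Log2 change of MPP2 over HSC for each of the 37 genes in KO and Het (3 libraries a group) and Sham (2 a group), with bars for the standard error. Filled points passed the adjusted threshold: 4 in KO, 17 in Het and 29 in Sham.

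The balance of cap and core was compared within each library as the mean log2 CPM of the 17 19S subunits minus that of the 14 20S subunits. Since the listed gene lengths are the same in every library, scaling by them would leave a change in this difference as it is. Whether coverage or RNA quality moved it between libraries was not tested. In HSC it was 0.47 ± 0.09 (SD, n = 8 libraries), with values from 0.29 to 0.55. In MPP1 it was 0.51 ± 0.06, with values from 0.39 to 0.57. In MPP2 it was 0.63 ± 0.09, with values from 0.46 to 0.75. By genotype the MPP2 values were 0.46, 0.58 and 0.61 in KO, 0.75, 0.60 and 0.65 in Het, and 0.66 and 0.74 in Sham. The HSC values were 0.47, 0.53 and 0.46 in KO, 0.54, 0.37 and 0.53 in Het, and 0.55 and 0.29 in Sham. HSC and MPP2 thus overlapped in KO and separated in Het and Sham. The MPP1 values were 0.46, 0.50 and 0.52 in KO, 0.53, 0.39 and 0.57 in Het, and 0.57 and 0.55 in Sham. HSC and MPP1 overlapped in KO and Het and met at 0.55 in Sham. This comparison of particles was chosen after the calls had been seen and carries no test.

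The catalytic beta subunits have inducible counterparts in the immunoproteasome, which is built in blood cells. The ratio of inducible to constitutive subunit per kb of exon differed by site. Psmb8, the counterpart of Psmb5, was 2.82 to 8.66 times as abundant as Psmb5 in every library. Psmb9 was 0.347 to 0.849 times as abundant as Psmb6. For Psmb10 over Psmb7 the ratio was lower in MPP2 than in HSC in each genotype group, a pattern chosen after its values were seen. In HSC it was 0.9, 0.844 and 0.953 in KO, 1.05, 1.01 and 0.875 in Het, and 1.22 and 0.934 in Sham. In MPP1 it ran from 0.614 to 0.949. In MPP2 it was 0.447, 0.448 and 0.489 in KO, 0.454, 0.479 and 0.504 in Het, and 0.376 and 0.645 in Sham, so that no MPP2 library reached the lowest HSC library. The fall was not particular to Psmb10. Mean Psmb8 over Psmb5 was 5.24, 6.01 and 7.39 in HSC KO, Het and Sham, and 4.19, 4.33 and 3.44 in MPP2. Mean Psmb9 over Psmb6 was 0.727, 0.693 and 0.606 in HSC, and 0.499, 0.552 and 0.403 in MPP2. For both of these ratios HSC and MPP2 libraries overlapped in Het but not in KO or Sham. Between KO and Het the Psmb10 ratios overlapped in each population. Of the 3 inducible subunits, Psmb10 fell from HSC to MPP2 in Het (log2 -0.54 ± 0.18, adjusted p = 0.0329), and in HSC Psmb9 was higher in KO than in Sham (0.78 ± 0.20, adjusted p = 0.0354). No inducible subunit passed from HSC to MPP2 in KO or Sham. Mean Psmb10 went from 62.3 to 51.4 CPM in KO and from 47.6 to 44.1 in Sham. Mean Psmb7 went from 52.8 to 85.1 CPM in KO and from 35.2 to 68.5 in Sham. None of the inducible subunits passed between KO and Het in any population, and their medians there were 0.24, 0.42 and 0.27 in HSC, MPP1 and MPP2. The largest was Psmb9 in MPP1 (0.69 ± 0.18, adjusted p = 0.224). The interferon response genes, to which this family partly belongs, summed to 1799 to 1953 CPM in HSC KO and 1627 to 2053 in HSC Het, to 1696 to 1927 and 1288 to 1550 in MPP1, and to 1336 to 1541 and 1012 to 1321 in MPP2. The sums overlapped in HSC and not in the progenitors. Gene by gene the 13 went both ways, with 4 above 0 in HSC (median -0.19), 8 in MPP1 (0.14) and 6 in MPP2 (-0.01), and 0 called by edgeR. Their part in the values of the inducible subunits was not tested.

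**Figure D5:**
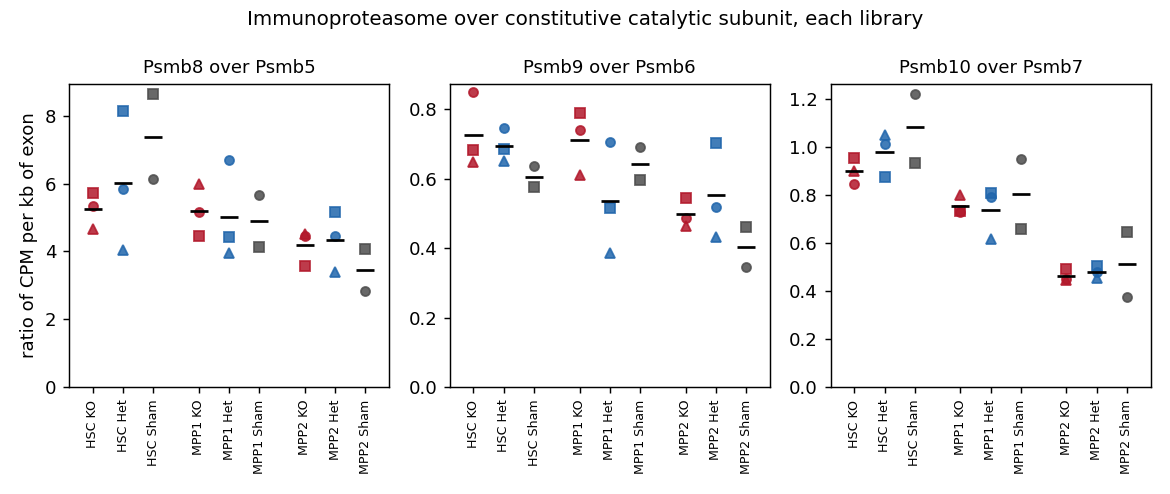
Ratio of each inducible immunoproteasome subunit to its constitutive counterpart, in CPM per kb of exon, for every library by cell population and genotype group. Triangles, circles and squares are replicates 1, 2_3 and 4, and bars are group means. Psmb10 over Psmb7 lies at 0.844 to 1.22 in HSC and 0.376 to 0.645 in MPP2.

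Other genes of the pathway were taken as fixed lists. Between KO and Het no gene of any list passed in any population. Among 6 factors for 20S assembly and nuclear import, 4 were above 0 in HSC, 6 in MPP1 and 5 in MPP2, and the smallest unadjusted p values belonged to Psmg1, an assembly chaperone (0.52 ± 0.20 in HSC and 0.53 ± 0.20 in MPP2). The 5 measured activator and inhibitor genes were all above 0 in each population, with Psme3, the nuclear activator, at 0.53 ± 0.18 and Psme2, a subunit of the interferon-inducible activator, at 0.42 ± 0.19 in HSC. Among 10 other 19S and proteasome-associated proteins, 8 were above 0 in HSC, 7 in MPP1 and 10 in MPP2, including the deubiquitinases Uchl5 (0.66 ± 0.21) and Usp14 (0.49 ± 0.18) in HSC, while Ubl7 was at -0.60 ± 0.17 there (adjusted p = 0.0898). The 7 genes of Nrf1 control did not share the subunits' shift: 2 were above 0 in HSC, 3 in MPP1 and 4 in MPP2. In HSC the lowest unadjusted p among these belonged to Ddi2, the protease that activates Nrf1, at -0.43 ± 0.18, and to Maff, a small Maf partner, at -1.07 ± 0.47. Of 14 ubiquitin and shuttle factor genes, 13 were above 0 in HSC, 14 in MPP1 and 12 in MPP2, with the segregase cofactor Faf1 at 0.36 ± 0.17 in HSC.

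From HSC to MPP2 in Het, 10 genes of these 5 lists rose and 3 fell, out of 42, where 9.59% of all genes rose and 8.37% fell. The rises were led within their lists by Psme3 (0.92 ± 0.18, adjusted p = 4.36e-04), the core maturation factor Pomp (0.58 ± 0.17, 0.0121) with Psmg2 (0.74 ± 0.23, 0.0249), Usp14 (0.74 ± 0.18, 0.00363) with Uchl5 (0.82 ± 0.21, 0.00504), and Faf1 (0.66 ± 0.17, 0.00452) with the shuttle factor Ubqln4 (0.62 ± 0.18, 0.0145). The falls were Ubl7 (-1.47 ± 0.17, 7.04e-07), Maff (-3.35 ± 0.51, 2.30e-05) and Nfe2l1 itself (-0.44 ± 0.14, 0.0214). Nfe2l1 was 126, 148 and 165 CPM in HSC Het and 122, 103 and 99.3 in MPP2 Het, below the HSC range. It did not pass in KO (-0.25 ± 0.14) or in Sham (0.07 ± 0.17), where it was 123 and 127 CPM in HSC and 136 and 125 in MPP2. In KO, Nfe2l2, which encodes the related factor Nrf2, rose from HSC to MPP2 (0.58 ± 0.17, adjusted p = 0.0337), as did Pomp (0.54 ± 0.17, 0.0469) and Usp14 (0.63 ± 0.18, 0.0334), while Maff fell (-1.65 ± 0.48, 0.0356). Of all genes 3.39% rose and 2.65% fell in KO. In Sham, where 13.6% of all genes rose and 7.69% fell, the lists held 2 rising activators led by Psme3 (1.15 ± 0.22), 4 of 6 assembly factors led by Pomp (0.90 ± 0.21), 5 of 10 other 19S and associated proteins led by Usp14 (1.34 ± 0.23) and 9 of 14 ubiquitin and shuttle factors led by Faf1 (1.12 ± 0.20). Of the 7 genes of Nrf1 control, 3 rose there (Nfe2l2, Ddi2 and Mafk) and Maff fell, as did Ubl7, an associated protein. Between KO and Sham in HSC, Usp14 (0.95 ± 0.21, adjusted p = 0.0143) and Faf1 (0.70 ± 0.19, 0.0408) rose. The cycling genes moved with these population gaps too: 14 of 15 rose from HSC to MPP2 in Het (median 2.65) and in Sham (3.31), and 5 in KO (1.48), and their part in the result was not tested.

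All 37 genes were located in the mm9 annotation, and exons of 10 overlap exons of another gene. The largest overlaps are those of Psmc3ip with Mlx on the other strand (21.2% of its exon bases) and of Psmd1 with Htr2b and Armc9 (13.1%). Of Psmd14, 12% overlaps a second record of the same symbol, and of Psmb5, 11.8% overlaps the microRNA gene Mir686. Whether counting used the strand of the reads is not given in the sources used here, so reads in those stretches may belong to either gene. Psmd8, Psmd7, Psmd11, Psmb6 and Psma1, among the genes described above, have no such overlap.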

How the data were processed

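RNA was measured by paired-end, rRNA-depleted, strand-marking sequencing with 50 bp reads, per the labels' protocols. The authors deposited raw read counts per gene for each of the 24 libraries and 1 normalized table of 12186 genes, whose values are read here as a normalized signal because the authors' scaling is not given in the sources used here. Per the submitters' processing notes, the mm9 build was used with TopHat2 2.0.9 and Bowtie 1.0.0, and the same notes name featureCounts, Trimmomatic 0.33, R 3.1.2, FastQC and edgeR; the annotation and the strand setting are not given in the sources used here.

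Counts were fitted with edgeR 4.0.16 in R 4.3.3: TMM scaling, filterByExpr with a least count of 10 (21456 of 23364 genes kept), 9 group means, 15 residual degrees of freedom, robust quasi-likelihood tests and Benjamini-Hochberg adjustment across these genes, called under 0.05. Each SE was obtained from the fold change (log2) and its F statistic. Levels are CPM, and log2 CPM uses a prior count of 2. Interactions were contrasts of the same fit. The scripts were tested on simulated data with a smaller dispersion (spread between libraries) than the common value of 0.466 in these data. That test does not measure power here. Libraries held 18823971 to 53196624 counts, and no 2 were identical.

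The genes described and the lists were chosen with earlier results of these data known. Values are given for the active-site subunits and Psmd14, for up to 6 passing members by adjusted p and the extreme members of each comparison, for up to 3 members whose KO and Het libraries do not overlap, for the extremes per kb, for members that are not canonical subunits, for up to 3 passing genes of each pathway list (or up to 2 by unadjusted p), and for the 5 genes most like the subunit mean among genes of at least 5 CPM. Some genes that this rule takes are not reported here.

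Alternatives were RLE scaling, no filter, the replicate number as a block, DESeq2 1.42.0, a fit on the groups compared alone, limma 3.58.1 on the authors' table and leaving out each library. Leaving out the 2 HSC libraries with fewest genes, leaving out all libraries numbered 1, and the test of the KO gap against the Sham gap were added after seeing the data. Same-numbered libraries deviated together between MPP2 and HSC in Het (r = 0.17, 0.20 and 0.36) and in KO (0.45, 0.75 and 0.24). The r values were also positive between KO and Het in MPP1 (0.28, 0.08 and 0.26) and in MPP2 (0.04, 0.45 and 0.42). They were so in Het between MPP1 and HSC (0.26, 0.22 and 0.09) and between MPP2 and MPP1 (0.23, 0.28 and 0.02). Signs were mixed between KO and Het in HSC, and comparisons with Sham libraries ran from -0.39 to 0.12. The main tests use no pairing, and the number enters only as the block of an alternative fit. The labels give only the numbers. Positions are from mm9 with the GENCODE vM1 annotation, and promoters from RefSeq on GRCm38.p6, joined by symbol.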

Additional observations from a re-analysis of the deposited data

How the results depend on the processing

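Over 963 recomputed values of 73 results, 829 kept direction and side of the threshold or stayed within the margin, 97 were weaker, 24 stronger and 13 moved; causes were not tested. No single-gene result recomputed in this way changed sign, but 4 medians without a test did: Het against Sham in HSC (0.14 to -0.12), KO against Sham in MPP2 (0.01, from -0.11 to 0.10) and the differences of the KO effect from that in HSC (-0.11 to 0.02 in MPP2, -0.06 to 0.09 in MPP1). The count of members passing between KO and Het in HSC, 1 as reported, was 0 with RLE scaling, 0 without the filter, 0 in a fit on those groups alone, 0 without both HSC libraries with the fewest genes, 0 without all libraries numbered 1, and 0 to 1 as single libraries were left out. Between KO and Sham in HSC, 6 became 10 with DESeq2, 0 in a fit on those groups alone, 1 without both HSC libraries with the fewest genes, 0 without libraries numbered 1 and 0 to 9 leaving out single libraries; its median of 0.57 became 0.31 without libraries numbered 1 and 0.29 to 0.86 leaving out single ones. The median of Het against Sham in HSC ranged from -0.12 to 0.43 in that way, that in MPP2 from -0.39 to -0.18, and those of KO against Het from 0.31 to 0.47 in HSC and from 0.22 to 0.41 in MPP1 and in MPP2. Between MPP2 and HSC in Het, 17 became 7 on those groups alone, 11 without both HSC libraries with the fewest genes and 8 to 20 leaving out single libraries. Between MPP2 and MPP1 in Het, 1 became 3 with RLE scaling, 2 without the filter, 8 with DESeq2, 2 with limma, 4 without libraries numbered 1 and 0 to 4 leaving out single ones. Between MPP2 and HSC in KO, 4 became 7 without the filter, 7 with DESeq2, 13 on those groups alone, 8 without both HSC libraries with the fewest genes, 8 without libraries numbered 1 and 0 to 8 leaving out single ones. In Sham, 29 became 19 with limma and 15 to 32 leaving out single libraries. For the KO gap against the Sham gap, 0 became 7 with DESeq2, 1 on those groups alone, 1 with limma and 0 to 2 leaving out single libraries, and its median ranged from -0.79 to -0.27. On the authors' table, limma gave medians of 0.28, 0.14 and 0.21 for KO against Het in HSC, MPP1 and MPP2, 0.37 for KO against Sham in HSC, 0.27 in MPP1, -0.16 for Het against Sham in MPP2, 0.31, 0.21 and 0.53 for MPP2 against HSC in Het, KO and Sham, 0.14 for MPP2 against MPP1 in Het and -0.28 for the gaps.

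With the replicate block, the members passing were 3 between KO and Het in HSC, 1 between MPP1 and HSC in Het, 7 between MPP2 and MPP1 in Het, 9 between MPP2 and HSC in KO and 6 for the KO gap against the Sham gap. In the other comparisons the block moved the count by less than 1.5 times. Whether same-numbered libraries share mice is not given in the sources used here. Their deviations had r of -0.26, 0.06 and 0.28 between KO and Het in HSC, and 0.04, 0.45 and 0.42 in MPP2. RLE scaling moved the median of all genes by -0.068 to 0.036 against TMM. With 2 Sham libraries a group, each Sham value rests heavily on a single library.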
